A study of Mus musculus with 24 samples.

Results

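The miR-15/16 family, to which miR-497, miR-195 and miR-322 also belong, was measured in the small RNA of mouse subcutaneous adipose tissue. The members are the 6 mature 5p miRNAs miR-16-5p, miR-195a-5p, miR-497a-5p, miR-15a-5p, miR-322-5p and miR-15b-5p. They were found in the deposited table by their mature accession, which gave 6 of 1907 mature miRNAs, and the copies of one accession were summed. That rule used no measured value, but the family was chosen with earlier results of these data known. The 24 libraries fall into 4 groups of 6: kinase dead trained, kinase dead sedentary, wild type trained and wild type sedentary. All mice were female, and the 12 libraries of each genotype came from mice fed chow. Trained mice had 6.5 weeks of treadmill running, on 5 days of each week, for 1 hour at 16 m/min, and could also use a running wheel. The labels give neither the kinase that is dead, nor the allele or the cells that carry it, nor the age of the mice, nor the fat depot. The labels do not say that each library is a separate animal, and p-values therefore speak only of the spread among libraries.

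A miRNA guides the silencing complex to messenger RNAs that pair with its seed, the bases 2 to 8 from the 5′ end, so miRNAs with one seed are expected to share many targets. The miR-15/16 family is best known for restraining the cell cycle and cell survival, with cyclins such as Ccnd1 and Ccne1 and the survival factor Bcl2 among its known targets. The locus of miR-15a and miR-16 is often lost in human chronic lymphocytic leukaemia, miR-195 is known in the mouse heart for holding back the division of muscle cells after birth, and miR-322 and its neighbour miR-503 rise as mouse myoblasts leave the cell cycle.

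The mature sequences, from RefSeq (GRCm38.p6), are shown because the shared seed, in capitals, defines the family and the bases after it are what separates the members' reads. miR-503-5p, the neighbour of miR-322, is set beside them.
miR-16-5p: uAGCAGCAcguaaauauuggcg
miR-195a-5p: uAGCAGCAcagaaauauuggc
miR-497a-5p: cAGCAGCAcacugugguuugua
miR-15a-5p: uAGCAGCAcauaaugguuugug
miR-15b-5p: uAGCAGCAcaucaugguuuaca
miR-322-5p: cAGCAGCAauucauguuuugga
miR-503-5p: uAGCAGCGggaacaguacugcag

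All 6 members carry the seed AGCAGCA. Over the first 21 positions, counted from 1 at the 5′ end, 9 are the same in all 6, namely the 7 of the seed and positions 17 and 18. miR-503-5p differs from miR-322-5p inside the seed, at A8G, and is therefore not a member. The closest pair is miR-16-5p and miR-195a-5p, which differ at G10A and U11G only over 21 positions. miR-15a-5p and miR-15b-5p differ at A12C, G20A, U21C and G22A. How many mismatches alignment allowed is not stated, so a reading error of 2 bases could move a read between the closest pair. Of 1613 mature accessions with a RefSeq sequence, 10 carry the seed. The 4 that are not members were nearly absent: miR-6342, miR-6353 and miR-6419 had 0 reads in the 24 libraries, and miR-195b had 16.

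The members come from 4 stretches of the genome. On chromosome 14, miR-15a-5p (chr14:61632075-61632096, minus strand) and the first copy of miR-16-5p (chr14:61631936-61631957, minus strand) lie in an intron of Dleu2, a long noncoding RNA gene on the same strand. On chromosome 3, miR-15b-5p (chr3:69009775-69009796, plus strand) and the second copy of miR-16-5p (chr3:69009918-69009939, plus strand) lie in an intron of Smc4, the gene of a condensin subunit that compacts chromosomes, also on the same strand. On chromosome 11, miR-497a-5p (chr11:70234730-70234751, plus strand) and miR-195a-5p (chr11:70235062-70235082, plus strand) start 332 bases apart and overlap no annotated gene other than miRNA hairpins. On the X chromosome, miR-322-5p (chrX:53054306-53054327, minus strand) starts 278 bases from miR-503-5p, again within no gene other than hairpins. No member overlaps a miRNA on the opposite strand.

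The libraries held 1.60 to 23.6 M reads assigned to miRNAs, so 3 reads stand for 0.116 to 1.76 CPM (reads scaled to a common library total, itself adjusted by its TMM factor), and the fewest reads of a member row in any library were 203. The tissue label was set against 6 miRNAs abundant in fat, all of which were present in every library, among them miR-143-3p at 85980 to 185091 CPM and miR-378a-3p at 8111 to 18707 CPM. A miRNA typical of mature lymphocytes, miR-150-5p, stood in 7 libraries at 3630 to 6739 CPM, against 541 to 1015 CPM in the other 17. They are 2 kinase dead trained, 2 kinase dead sedentary, 2 wild type trained and 1 wild type sedentary library. The summed level of 5 lymphocyte miRNAs was 13172 to 21478 CPM in these 7 and 1443 to 3295 CPM in the other 17. The members' log2 fold changes with training are given with and without these libraries. In tissue RNA, more cells of a type and more RNA per cell cannot be told apart.

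The family made up a small and fairly steady part of the fat's miRNA. It took 0.367% to 0.778% of all reads, with a median of 0.562%. miR-16-5p (MIMAT0000527) was the most abundant member, at 2846 ± 728 CPM (mean ± SD, n = 24), and ranked 45 among all mature miRNAs. That level is the sum of the counts at its 2 copies, and the sources used here do not say whether a read that maps to both was counted at 1 of them or at each. In the second case the level would be near that of a single copy, 1395 ± 358 CPM for the one on chromosome 3 (SD, n = 24), at rank 66 and above miR-195a-5p in 11 of 24 libraries, and its shares of the family would be lower. miR-195a-5p (MIMAT0000225) followed at 1200 ± 252 CPM, at rank 74. miR-497a-5p (MIMAT0003453) had 681 ± 194 CPM and rank 96. With the copies summed, these leading members were in the same order in every library: miR-16-5p was above miR-195a-5p in 24 of 24 with ranges that do not overlap, and miR-195a-5p was above miR-497a-5p in 24 of 24. miR-15a-5p (MIMAT0000526) had 495 ± 309 CPM, miR-322-5p (MIMAT0000548) had 213 ± 47.3 CPM and miR-15b-5p (MIMAT0000124) had 211 ± 113 CPM. Their order was not stable. miR-497a-5p exceeded miR-15a-5p in 16 of 24 libraries, and miR-15a-5p exceeded miR-322-5p in 19 of 24. The means of miR-322-5p and miR-15b-5p differ by far less than their SDs.

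**Figure D1:**
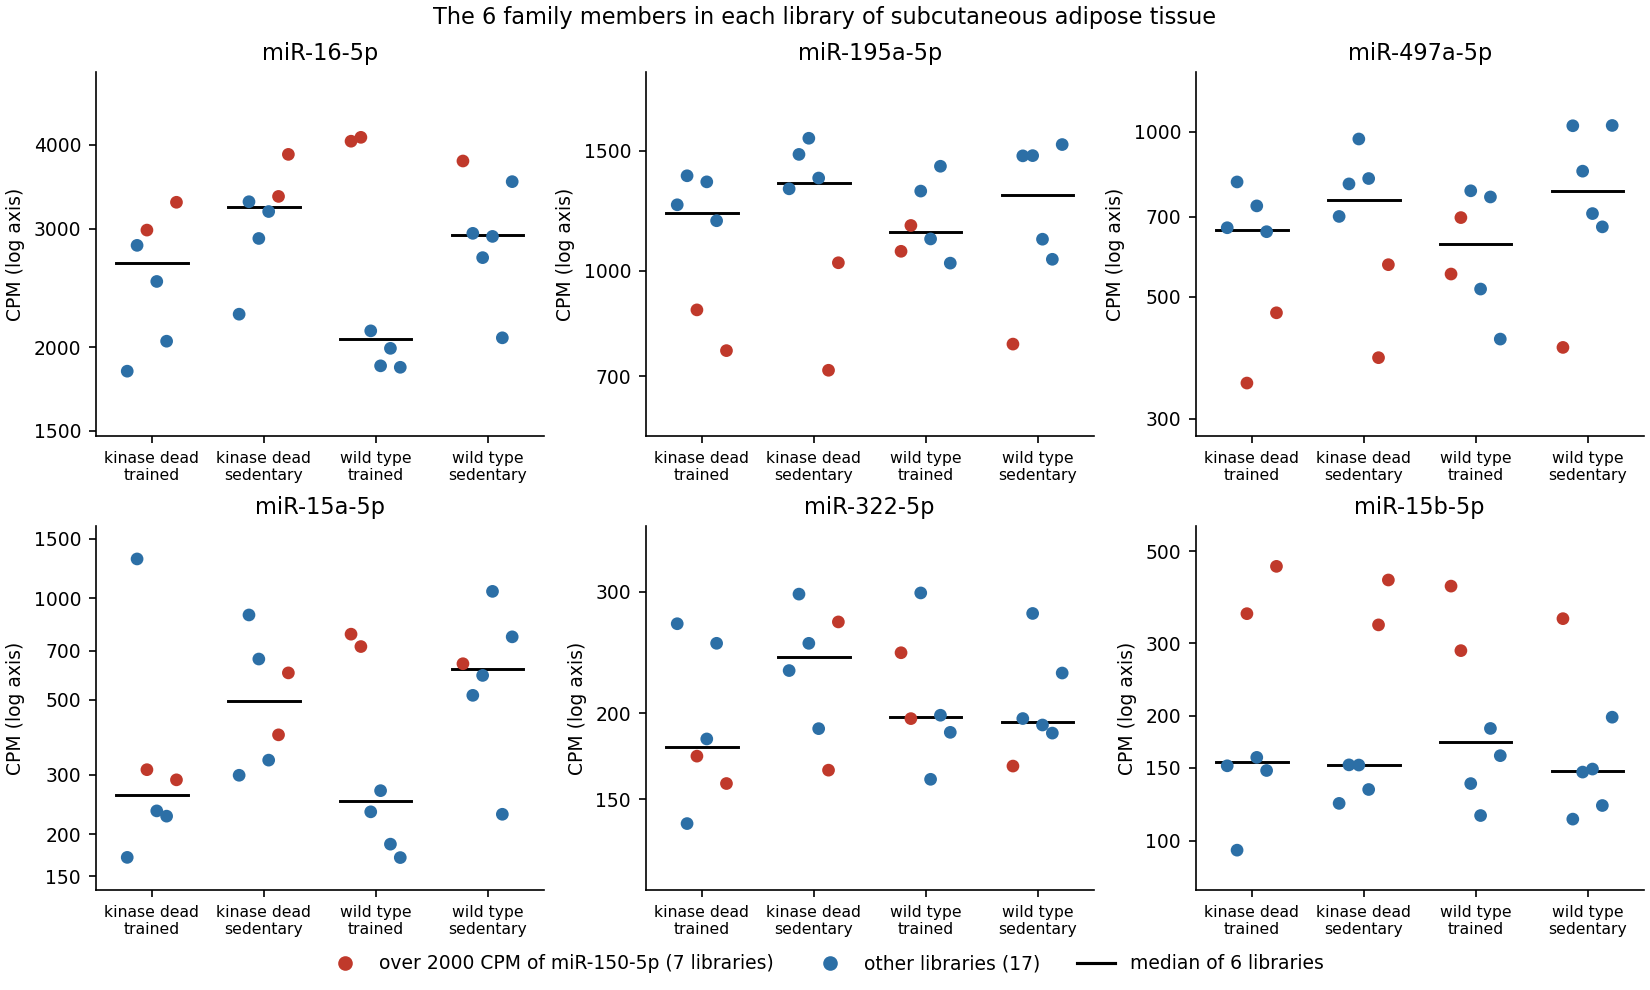
CPM of each member (log axis) in the 6 libraries of each group; points are libraries, red for the 7 with over 2000 CPM of miR-150-5p, and lines are group medians. The groups overlap for every member, and the red points of miR-15b-5p, 288 to 460 CPM, all lie above the blue ones, 94.8 to 199 CPM.

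The make-up of the family differed between the 7 libraries rich in miR-150-5p and the other 17. miR-15b-5p lay between 288 and 460 CPM in the 7 and between 94.8 and 199 CPM in the 17, so the ranges do not overlap. It was the only member with that property at the level of CPM. Among the 582 miRNAs tested, 11% had ranges that do not overlap between these libraries in either direction, and 9.79% were higher in the 7. miR-16-5p ranges overlapped, at 2986 to 4105 CPM against 1841 to 3526 CPM. miR-195a-5p had 714 to 1165 CPM in the 7, against 1026 to 1565 CPM. miR-497a-5p had 348 to 697 CPM in the 7, against 419 to 1026 CPM. Their means were 913 and 1318 CPM for miR-195a-5p, in the 7 and the 17, and 489.7 and 759.7 CPM for miR-497a-5p. Summed markers of several tissues and cell types had lower medians in the same 7 libraries. miR-143-3p averaged 105164 CPM in the 7 and 148421 CPM in the 17. The 6 fat miRNAs, of which miR-143-3p is the most abundant, summed to a median of 152349 against 205332 CPM. The 7 epithelial miRNAs summed to a median of 14836 against 21409 CPM. For 2 endothelial miRNAs the medians were 40180 against 56405 CPM. They were 812 against 2139 CPM for 6 skeletal muscle miRNAs and 1947 against 2785 CPM for 4 red cell miRNAs. Their part in the members' values was not tested.

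As shares of the family's own reads, 3 members had ranges that do not overlap between these libraries. Shares of one total are tied together, so a higher share of one member lowers those of others. This count has no figure over all miRNAs beside it. On CPM only miR-15b-5p separated the libraries, where 11% of all miRNAs tested did so. miR-16-5p made up 57.0% to 62.7% of the family in the 7 libraries and 41.9% to 52.8% in the other 17, without overlap. miR-195a-5p made up 12.7% to 17.4% in the 7 and 18.1% to 29.99% in the 17, again without overlap. miR-497a-5p behaved like its neighbour, with 6.61% to 9.72% against 10.9% to 16.3%. The share of miR-15b-5p, in contrast to its CPM, overlapped slightly, at 4.01% to 8.48% in the 7 and 1.44% to 4.19% in the 17. miR-15a-5p and miR-322-5p overlapped as well, with 5.34% to 11.02% against 3.92% to 19.9% for miR-15a-5p and 2.74% to 4.01% against 2.11% to 6.20% for miR-322-5p. miR-322-5p exceeded miR-15b-5p in 0 of the 7 libraries and in 17 of the 17 others. miR-223-3p, a miRNA of myeloid cells, had 147 to 220 CPM in the 7 libraries and 135 to 241 CPM in the 17. The part of lymphocytes in these shifts was not tested beyond these values.

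**Figure D2:**
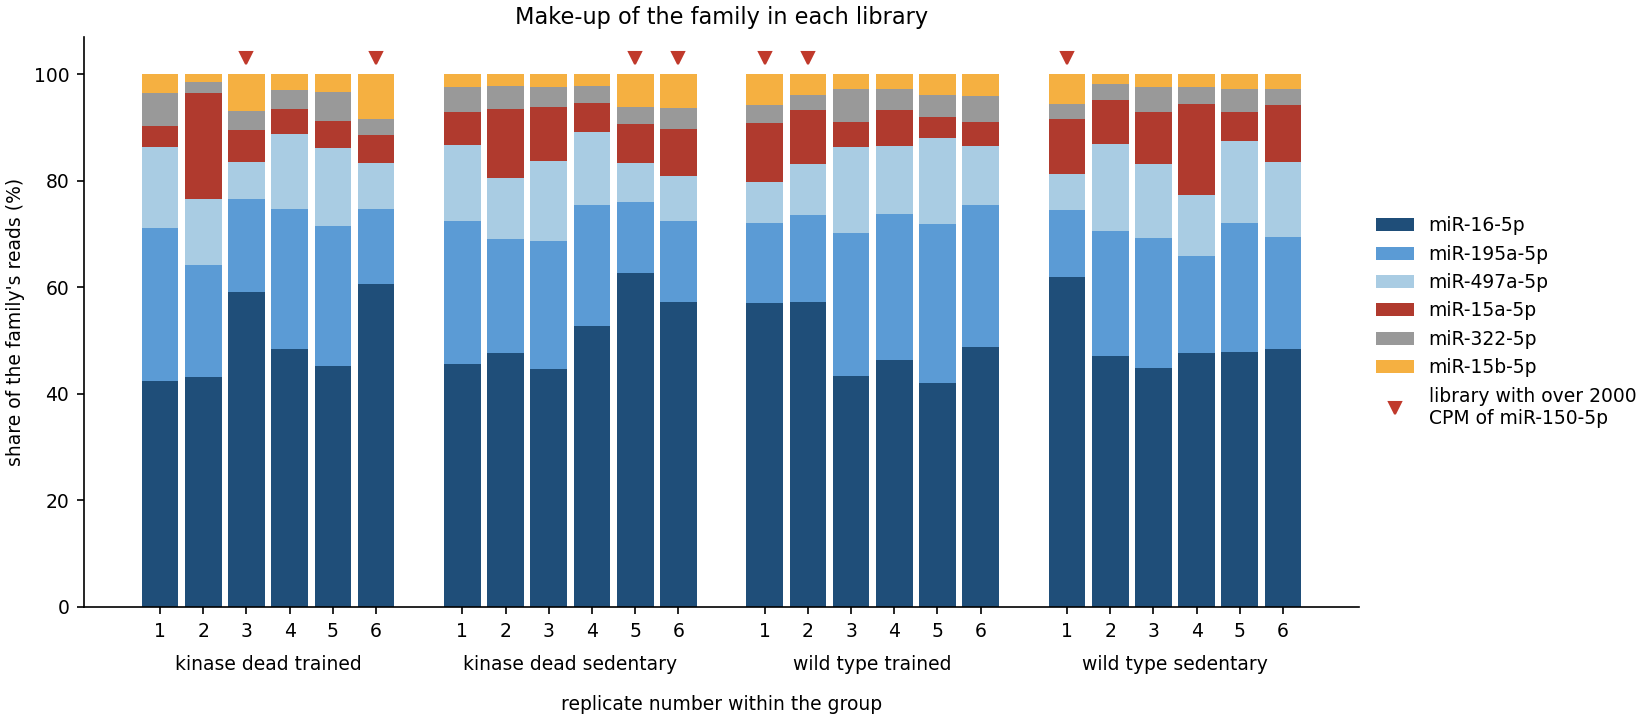
Share of the family's reads (percent) taken by each member in each library, by group, with triangles over the 7 libraries with over 2000 CPM of miR-150-5p. miR-16-5p takes 57.0% to 62.7% under the triangles and 41.9% to 52.8% elsewhere.

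The copies of miR-16-5p give one mature sequence, so its reads cannot be traced to a locus. The copy on chromosome 14 was assigned 50.9% of the reads over all libraries and 49.9% to 52.3% within a library, close to an even division. The hairpins differ outside the 5p arm, and their 3p arms can be told apart. Both hairpins are printed from RefSeq (GRCm38.p6), Mir16-1 at chr14:61631880-61631972 on the minus strand and Mir16-2 at chr3:69009902-69009996 on the plus strand, with the 5p and 3p arms in capitals.
Mir16-1: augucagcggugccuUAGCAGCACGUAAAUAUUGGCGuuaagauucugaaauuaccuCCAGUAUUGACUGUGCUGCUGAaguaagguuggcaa
Mir16-2: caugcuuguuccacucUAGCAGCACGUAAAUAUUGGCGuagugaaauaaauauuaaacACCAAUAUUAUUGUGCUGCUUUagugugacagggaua

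The 3p arm of the Dleu2 copy, miR-16-1-3p, was the more abundant, at 188 ± 49.4 CPM (SD, n = 24) against 7.84 ± 5.65 CPM for miR-16-2-3p of the Smc4 copy. Over all reads the ratio of the first to the second was 23.4. How much of miR-16-5p each locus made is not given by that ratio, since the arms of each hairpin may be kept to different degrees. The Smc4 arm stood out in the libraries rich in miR-150-5p, with 11.3 to 21.5 CPM in the 7, against 2.58 to 6.42 CPM in the other 17, which do not overlap. The Dleu2 arm ranged from 174 to 283 CPM in the 7 and from 106 to 293 CPM in the 17, with overlap. miR-15b-3p, the other 3p arm of the Smc4 locus, had 4.20 to 32.2 CPM in the 7, against 0.309 to 6.38 CPM elsewhere, with overlap. Its highest value was kinase dead sedentary replicate 6, and its lowest was 1 read, under the floor of 3 reads. From the Smc4 locus, miR-15b-5p and miR-16-2-3p therefore separated the same libraries and miR-15b-3p did not. Of all 582 miRNAs tested, 9.79% were higher in the 7 without overlap, so such a separation is not particular to this locus.

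miR-15a-5p was the most variable member. Its level ran from 171 to 1309 CPM over the 24 libraries, a range of 7.68-fold. Within groups its SD on the log2 scale was 0.86, against a median of 0.33 for the 205 miRNAs of at least 100 CPM, among which it ranked 18. The other members had a within-group SD of 0.73 for miR-15b-5p, 0.45 for miR-497a-5p, 0.38 for miR-16-5p, 0.35 for miR-195a-5p and 0.32 for miR-322-5p. The other arm of its own hairpin, miR-15a-3p, ran only from 8.92 to 18.9 CPM, a range of 2.12-fold. The ratio of the 5p to the 3p arm of Mir15a accordingly ranged from 12.1 to 94.1 between libraries. Across the 17 libraries with less miR-150-5p, Pearson's r of log2 CPM between these arms was 0.11. Across the 7 it was -0.71. With miR-16-1-3p, which lies in the same Dleu2 intron, r was -0.27 in the 17 and 0.74 in the 7. With miR-16-5p it was 0.83 in the 17 and 0.95 in the 7.

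The miRNAs most like miR-15a-5p came from elsewhere in the genome and carry other seeds. They are the 3 with the highest r of log2 CPM over the 17 libraries among 352 tested miRNAs with a mean of at least 10 CPM, the members themselves left out, and their RefSeq sequences (GRCm38.p6) are shown with the seed in capitals to set beside the family's.
miR-193a-3p: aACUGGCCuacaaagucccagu
miR-22-3p: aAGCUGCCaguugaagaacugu
miR-130a-3p: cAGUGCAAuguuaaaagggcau

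miR-193a-3p (chromosome 11) had r = 0.97 over the 17 libraries and 0.86 over the 7. Its level ran from 37.2 to 1059 CPM, a wider range than that of miR-15a-5p. miR-22-3p (chromosome 11) had r = 0.97 and 0.89, and miR-130a-3p (chromosome 2) had 0.96 and 0.92. In all, 6 of the 352 exceeded an r of 0.9 with miR-15a-5p, and none did so with any of the other 5 members. These are descriptions over libraries that differ in depth. The relation of each member to the library total was computed after the values had been seen, in 1 family of 24 relations that also holds miR-451a, a red cell miRNA. Over the 17 libraries miR-15a-5p gave r = -0.57 with the log2 total (permutation p = 0.0179, adjusted 0.314) and Spearman's rho = -0.63 (permutation p = 0.00826, adjusted 0.198). Without the 2 libraries farthest from the median total r was -0.33. No relation of the 24 passed the adjusted threshold of 0.05. miR-16-5p, which is abundant in red cells, gave r = 0.13 with miR-451a over the 17 libraries (permutation p = 0.613, adjusted 0.919) and Spearman's rho = 0 (permutation p = 1, adjusted 1).

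**Figure D3:**
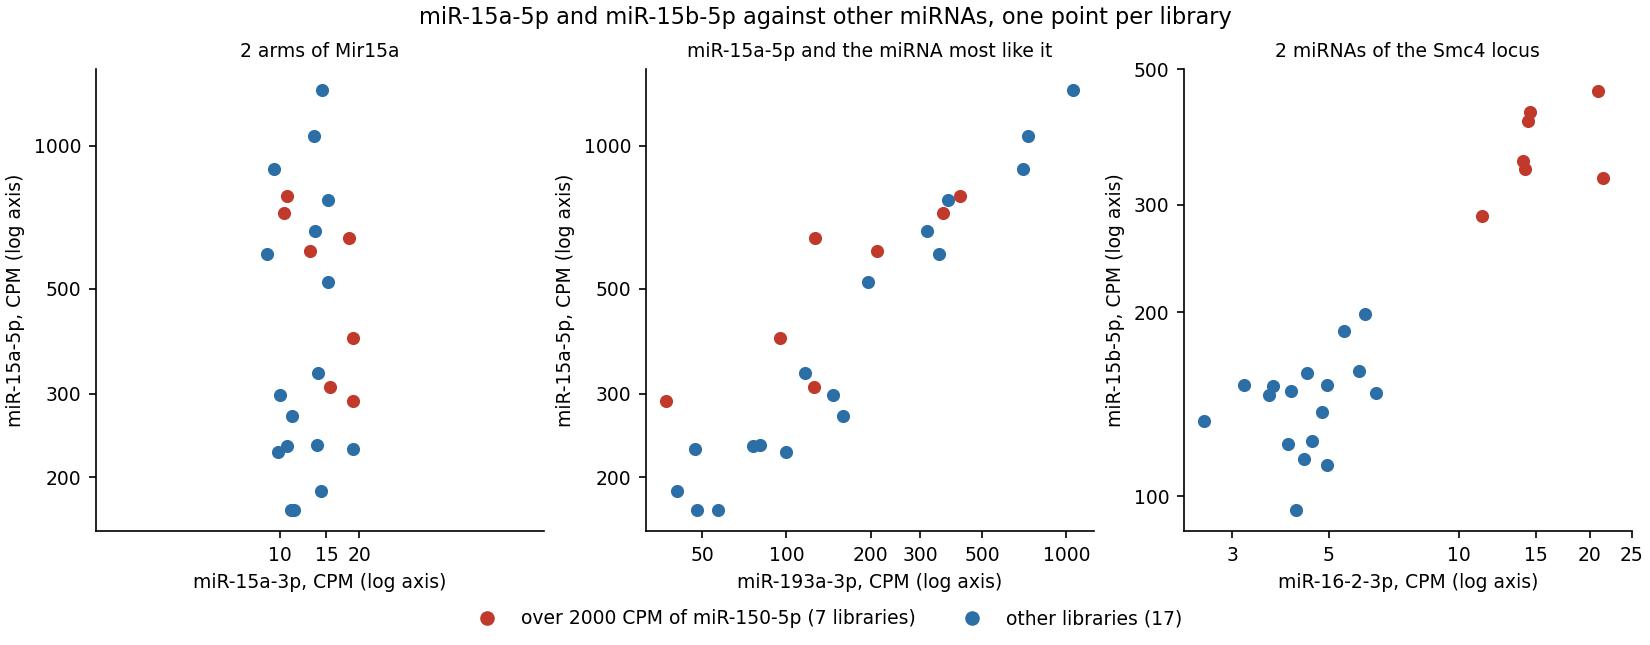
CPM per library (log axes) of miR-15a-5p against miR-15a-3p, of miR-15a-5p against miR-193a-3p, and of miR-15b-5p against miR-16-2-3p; red points are the 7 libraries with over 2000 CPM of miR-150-5p. miR-15a-5p spans 171 to 1309 CPM over a miR-15a-3p range of 8.92 to 18.9 CPM, and the red points of miR-16-2-3p, 11.3 to 21.5 CPM, lie apart from the blue ones, 2.58 to 6.42 CPM.

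For the other members the miRNAs most alike by the same rule were less close. For miR-16-5p, whose r with the member miR-15a-5p was as high (0.83 over the 17), they were miR-29b-3p (r = 0.82 over the 17 libraries and 0.83 over the 7), miR-151-5p (0.82 and 0.84) and miR-130a-3p (0.81 and 0.83). For miR-195a-5p they were miR-32-5p (0.82 and 0.77), miR-28a-5p (0.71 and 0.84) and miR-190a-5p (0.69 and 0.76). For miR-497a-5p they were miR-335-5p (0.77 and 0.58), miR-190a-5p (0.77 and 0.60) and miR-362-5p (0.71 and 0.79). Between miR-195a-5p and miR-497a-5p themselves r was 0.86 over the 17 libraries, above each of these, and 0.82 over the 7. For miR-322-5p the first was miR-350-3p, with r = 0.71 over the 17 and -0.17 over the 7, and for miR-15b-5p it was miR-467e-5p, with 0.67 and 0.43. miR-136-5p (0.70 and 0.75) and miR-3071-3p (0.70 and 0.75) came next for miR-322-5p. Both are on chromosome 12 and had the same lowest and median level, 5.60 and 16.7 CPM. They therefore cannot be taken as separate measurements. For miR-15b-5p, miR-154-5p (0.61 and 0.07) and miR-467c-5p (0.56 and 0.40) came next.

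The study's design asks what training does to the miRNAs of this fat, in mice with and without the kinase dead genotype. No member passed the test for training or for genotype. Under edgeR's quasi-likelihood test, with p-values adjusted over the 582 miRNAs tested, 0 of the 6 members passed 0.05 in any of 6 comparisons. Of all 582, 0% passed in each of the 6, and DESeq2 also called 0. The numbers with an unadjusted p under 0.05 follow for each comparison, by edgeR and then by DESeq2. With training they were 14 (2.41%) and 15 in kinase dead, 31 (5.33%) and 38 in wild type, and 36 (6.19%) and 38 averaged over genotypes. For the interaction they were 13 (2.23%) and 10. For genotype they were 4 (0.687%) and 9 in trained mice, and 7 (1.2%) and 6 in sedentary mice. The members contributed 0 of 6 to each of these numbers by either tool. The ranges of the groups overlapped for every member in each of the 4 two-group comparisons. The share of all 582 miRNAs with such overlap was not computed, so this is not a trait particular to the members.

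The summed level of the 6 members was 5176 ± 791 CPM in kinase dead trained and 6079 ± 809 CPM in kinase dead sedentary libraries (SD, n = 6 each). It was 5296 ± 1482 CPM in wild type trained and 6030 ± 959 CPM in wild type sedentary libraries. With training in kinase dead, 5 of 6 members had a log2 fold change below 0, with a median of -0.23, while 47.9% of all tested miRNAs were below 0 and their median was 0.01. With training in wild type, 4 of 6 were below 0, with a median of -0.11, again beside 47.9% and 0.01 for all. Averaged over genotypes 5 of 6 were below 0, with a median of -0.17, beside 47.1% and 0.01. These counts describe the family and carry no test.

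miR-16-5p, the member with the most reads, had 1841 to 3285 CPM in kinase dead trained libraries (median 2669) and 2238 to 3872 CPM in kinase dead sedentary libraries (median 3237). In wild type trained libraries it had 1866 to 4105 CPM (median 2052), and in wild type sedentary libraries 2064 to 3785 CPM (median 2938). Among the wild type trained libraries, the 2 rich in miR-150-5p were the 2 highest of all 24, and the other 4 lay at 1866 to 2114 CPM. The log2 fold change with training was -0.28 ± 0.21 (SE) in kinase dead and -0.17 ± 0.21 in wild type. Without the 7 libraries it was -0.36 in kinase dead (unadjusted p = 0.0460, adjusted p = 0.660 by edgeR) and -0.49 in wild type (unadjusted p = 0.00653, adjusted p = 0.226 by edgeR). Averaged over genotypes it was then -0.42 (unadjusted p = 0.00172, adjusted p = 0.105 by edgeR), the smallest adjusted p of any member under any of the settings tried.

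miR-15a-5p, which shares the Dleu2 intron with a copy of miR-16, had 171 to 1309 CPM in kinase dead trained libraries (median 262) and 299 to 893 CPM in kinase dead sedentary libraries (median 498). The value of 1309 CPM was replicate 2, and the other 5 trained kinase dead libraries lay at 171 to 311 CPM. It had 171 to 783 CPM in wild type trained libraries (median 251) and 229 to 1049 CPM in wild type sedentary libraries (median 616). In both genotypes most trained libraries lay below most sedentary ones, but single libraries crossed over. The log2 fold change was -0.33 ± 0.49 (SE) in kinase dead and -0.68 ± 0.49 in wild type. Without kinase dead trained replicate 2 the value in kinase dead was -1.06 (adjusted p = 0.996 by edgeR). Without the 7 libraries rich in miR-150-5p the value in wild type was -1.51 (unadjusted p = 0.0125, adjusted p = 0.280 by edgeR). In kinase dead it was then -0.22 (unadjusted p = 0.699, adjusted p = 0.999 by edgeR). The interaction was 1.30 without the 7 (unadjusted p = 0.109, adjusted p = 0.930 by edgeR) and 0.36 over all libraries (unadjusted p = 0.610, adjusted p = 0.993 by edgeR).

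miR-15b-5p, from the Smc4 intron, had 94.8 to 460 CPM in kinase dead trained and 123 to 426 CPM in kinase dead sedentary libraries, with medians of 155 and 152 CPM. It had 115 to 412 CPM in wild type trained and 113 to 344 CPM in wild type sedentary libraries, with medians of 173 and 148 CPM. In every group the top values belonged to the libraries rich in miR-150-5p. Without those, the means were 138 ± 29.3 CPM in kinase dead trained, 140 ± 14.6 CPM in kinase dead sedentary, 150 ± 30.8 CPM in wild type trained and 146 ± 33.5 CPM in wild type sedentary libraries (SD, n = 4, 4, 4 and 5). The log2 fold change with training over all libraries was 0.05 ± 0.41 (SE) in kinase dead and 0.28 ± 0.41 in wild type. Without the 7 it was -0.04 in kinase dead and 0.08 in wild type.

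The chromosome 11 members miR-195a-5p and miR-497a-5p had smaller SEs than miR-15a-5p and miR-15b-5p. miR-195a-5p had 763 to 1378 CPM in kinase dead trained and 714 to 1565 CPM in kinase dead sedentary libraries. It had 1026 to 1423 CPM in wild type trained and 780 to 1532 CPM in wild type sedentary libraries. Its log2 fold change with training was -0.14 ± 0.19 (SE) in kinase dead and -0.06 ± 0.19 in wild type, and the 95% interval in wild type ran from -0.46 to 0.34. It was -0.18 in kinase dead and -0.08 in wild type without the 7 libraries. miR-497a-5p had 348 to 810 CPM in kinase dead trained and 387 to 969 CPM in kinase dead sedentary libraries, against 419 to 780 CPM in wild type trained and 405 to 1026 CPM in wild type sedentary libraries. The 3 highest values of miR-497a-5p, 1026, 1025 and 969 CPM, were all sedentary. Its log2 fold change was -0.21 ± 0.24 (SE) in kinase dead and -0.33 ± 0.24 in wild type, and without the 7 libraries it was -0.23 in kinase dead and -0.43 in wild type (unadjusted p = 0.0266, adjusted p = 0.344 by edgeR).

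miR-322-5p, the X-linked member, was the steadiest. It had 138 to 270 CPM in kinase dead trained (median 178) and 165 to 298 CPM in kinase dead sedentary libraries (median 242). In wild type trained libraries it had 160 to 299 CPM (median 197), and in wild type sedentary libraries 168 to 279 CPM (median 194). The log2 fold change with training was -0.26 ± 0.19 (SE) in kinase dead and 0.04 ± 0.19 in wild type. The values without the 7 libraries were -0.23 in kinase dead and 0.00 in wild type. Over all libraries the difference of these effects, the interaction, was -0.30 ± 0.27 (unadjusted p = 0.273, adjusted p = 0.993 by edgeR), which had the smallest p of the 6 members for that comparison.

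**Figure D4:**
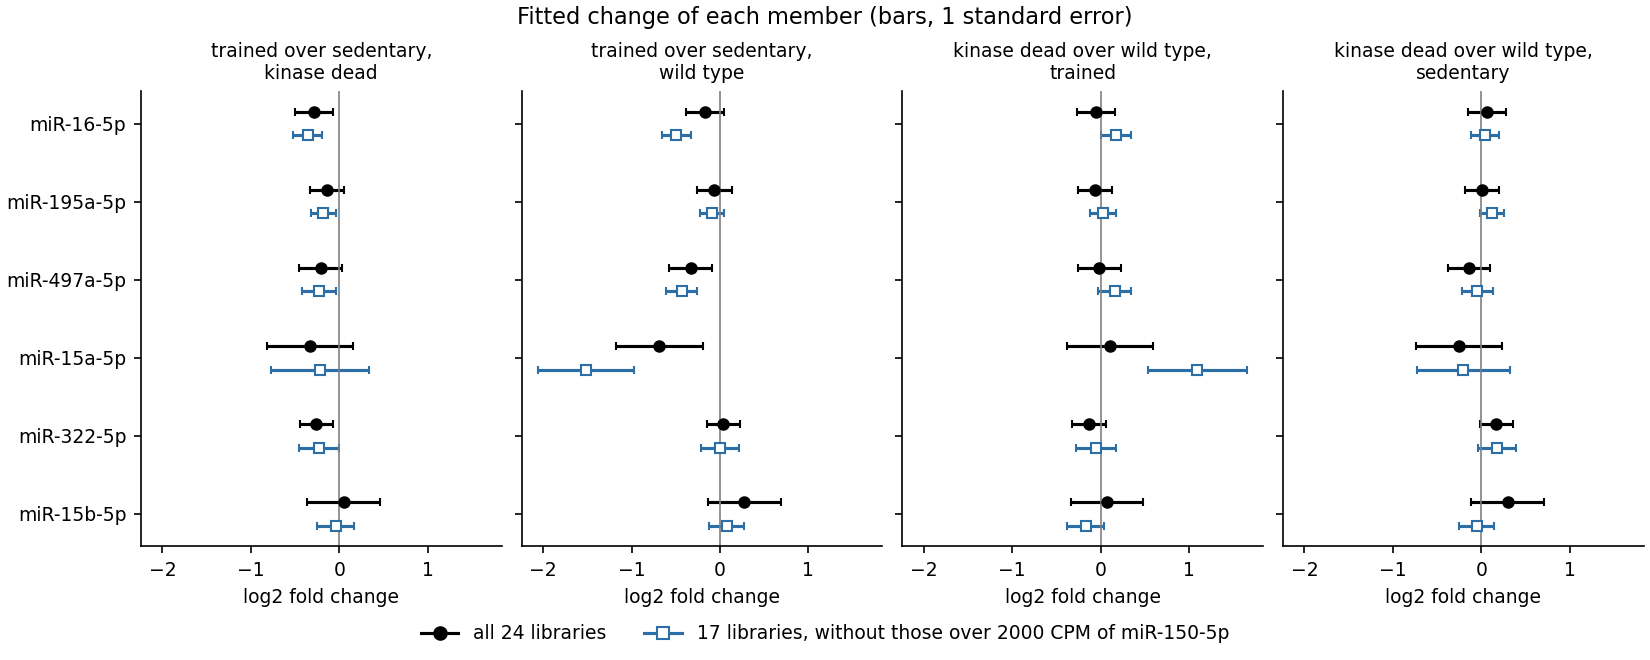
Log2 fold change of each member with training in each genotype and with genotype in each training status, with bars of 1 standard error; black, all 24 libraries, blue, the 17 without those over 2000 CPM of miR-150-5p. The bars are widest for miR-15a-5p, whose value for training in wild type is -0.68 over all libraries and -1.51 without the 7.

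Without the 7 libraries, 586 miRNAs were tested and again none passed the adjusted threshold, members included. With an unadjusted p under 0.05 there were 3 of 6 members for training in wild type, miR-16-5p, miR-15a-5p and miR-497a-5p, where the share of all tested miRNAs was 12.5%. In kinase dead there was 1 of 6, miR-16-5p, beside 7% of all. Averaged over genotypes there were 3 of 6, the same as in wild type, beside 13.7%. The other comparisons gave 0 of 6, beside 2.73% of all for the interaction, 1.88% for genotype in trained mice and 2.73% for genotype in sedentary mice. These libraries were left out after earlier results had shown them to stand apart.

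Over all 24 libraries, each log2 fold change of a member with genotype was smaller than its SE. In trained mice the log2 fold changes of kinase dead over wild type ran from -0.13 ± 0.19 (SE) for miR-322-5p to 0.10 ± 0.49 for miR-15a-5p, with 4 of 6 below 0 beside 47.9% of all tested miRNAs. In sedentary mice they ran from -0.25 ± 0.49 for miR-15a-5p to 0.30 ± 0.41 for miR-15b-5p, with 2 of 6 below 0 beside 53.4% of all. The unadjusted p-values of the members were 0.499 or more in trained mice and 0.377 or more in sedentary mice. In trained mice without the 7 libraries, miR-15a-5p was at 1.09 ± 0.56 (SE; unadjusted p = 0.0664, adjusted p = 0.997 by edgeR) and miR-16-5p at 0.17 ± 0.17, slightly more than its SE. The 4 kinase dead trained libraries behind the first value include the one with 1309 CPM, and leaving out that library alone gave -0.64. The interaction had 4 of 6 members below 0 and a median of -0.09, beside 47.8% and 0.02 for all tested miRNAs.

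Ratios within the family are free of library scaling, and 2 were tested by exact two-sided permutation of the library labels over all splits. With 6 libraries in each group the smallest possible p is 0.00216. The log2 ratio of miR-195a-5p to its neighbour miR-497a-5p was 0.91 ± 0.22 in kinase dead trained and 0.82 ± 0.09 in kinase dead sedentary libraries (SD, n = 6 each; exact p = 0.509, adjusted 0.678). It was 0.96 ± 0.21 in wild type trained and 0.69 ± 0.16 in wild type sedentary libraries, a difference of 0.27 (exact p = 0.0325, adjusted 0.130 over 8 tests). The log2 ratio of miR-15a-5p to miR-15b-5p compares 2 mature levels and need not give the output of the Dleu2 and Smc4 loci. Between miR-15a-5p and miR-15a-3p r was only 0.11 over the 17 libraries with less miR-150-5p. This log2 ratio was 0.71 ± 1.58 in kinase dead trained and 1.34 ± 0.89 in kinase dead sedentary libraries (exact p = 0.435, adjusted 0.678). It was 0.72 ± 0.56 in wild type trained and 1.799 ± 0.76 in wild type sedentary libraries, a difference of -1.08 (exact p = 0.0260, adjusted 0.130). With the 4 genotype tests included, whose exact p-values were 0.0974 or more, no ratio passed after adjustment. With the 7 libraries left out, the differences with training were, for miR-195a-5p to miR-497a-5p, 0.04 in kinase dead and 0.38 in wild type (exact p = 0.514 and 0.0159, adjusted 0.686 and 0.0952), and for miR-15a-5p to miR-15b-5p, -0.53 in kinase dead and -1.46 in wild type (exact p = 0.600 and 0.0238, adjusted 0.686 and 0.0952). Without the 7 the smallest possible exact p for training was 0.0286 in kinase dead (n = 4 and 4) and 0.00794 in wild type (n = 4 and 5). Leaving out kinase dead trained replicate 2 alone took the difference of miR-15a-5p to miR-15b-5p in kinase dead to -1.24 (exact p = 0.0260, adjusted 0.0866), against -0.62 with it.

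The 7 3p arms of the members' hairpins are the strands that are usually degraded after processing. Their share differed by hairpin: over all reads the 5p arm exceeded the 3p arm 137-fold for Mir497, 33.9-fold for Mir15b, 33.3-fold for Mir15a, 10.2-fold for Mir195a and 1.42-fold for Mir322. Mir322 thus had both arms at a like level, with miR-322-3p at 152 ± 24.8 CPM (SD, n = 24). Within single libraries the ratio of the 5p to the 3p arm had a median of 48.6 for Mir15b (13.2 to 393). For Mir15a that median was 27.1 (12.1 to 94.1). The most abundant 3p arms were miR-16-1-3p, miR-322-3p and miR-195a-3p, the last at 113 ± 24.9 CPM. In all 6 comparisons 0 of the 7 passed after adjustment. With training, miR-15a-3p in wild type had a log2 fold change of -0.41 (unadjusted p = 0.0473, adjusted p = 0.779 by edgeR). miR-497a-3p had -0.64 in kinase dead (unadjusted p = 0.0249, adjusted p = 0.994 by edgeR) and -0.48 averaged over genotypes (unadjusted p = 0.0170, adjusted p = 0.698 by edgeR). miR-497a-3p overlaps miR-497b on the opposite strand, and these had 1030 and 1043 reads in all, so their reads cannot be told apart.

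The neighbours of miR-322 on the X chromosome, both arms of miR-503, miR-351, miR-542, miR-450a and miR-450b, gave 11 mature miRNAs, of which 9 passed the filter on low counts. In all 6 comparisons 0 of the 9 passed after adjustment. With training in kinase dead 5 of 9 were above 0, with a median of 0.01, and in wild type 4 of 9, with a median of -0.06. The most abundant were miR-450a-5p at 308 ± 98.3 CPM, miR-542-3p at 109 ± 26.3 CPM and miR-351-5p at 69.1 ± 14.7 CPM (SD, n = 24). miR-503-5p had 63.8 ± 16.3 CPM, and its r with miR-322-5p was 0.29 over the 17 libraries and 0.81 over the 7. miR-542-5p, at a mean of 1.50 CPM and so near the level of 3 reads in the shallow libraries, had a log2 fold change with training of -0.89 in kinase dead (unadjusted p = 0.00533, adjusted p = 0.945 by edgeR) and -0.54 averaged over genotypes (unadjusted p = 0.0147, adjusted p = 0.698 by edgeR).

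Summed markers of other cells had ranges that overlap between all 4 groups. The 4 red cell miRNAs summed to 1880 to 4428 CPM in kinase dead trained, 1338 to 4572 CPM in kinase dead sedentary, 1406 to 4727 CPM in wild type trained and 2171 to 9414 CPM in wild type sedentary libraries. With training all 4 had log2 fold changes below 0 in wild type (median -0.62) and above 0 in kinase dead (median 0.43). For genotype in sedentary mice all 4 were below 0 (median -0.84). There 2 of the 4 had an unadjusted p under 0.05 by edgeR, beside 1.2% of all tested miRNAs, and 0 passed after adjustment. The 6 skeletal muscle miRNAs summed to 728 to 2359 CPM in kinase dead trained, 455 to 8488 CPM in kinase dead sedentary, 1144 to 6081 CPM in wild type trained and 661 to 7632 CPM in wild type sedentary libraries. The 5 lymphocyte miRNAs summed to 1443 to 20366 CPM in kinase dead trained, 1827 to 20165 CPM in kinase dead sedentary, 1542 to 20263 CPM in wild type trained and 1712 to 21478 CPM in wild type sedentary libraries. Each of these lists had all of its miRNAs above 0 in every group, except for 1 muscle miRNA at 0 in kinase dead sedentary libraries. Their part in the members' values was not tested beyond the fits without the 7 libraries and with miR-150-5p or miR-451a as a covariate.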

How the data were processed

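TRIzol RNA went into small RNA libraries from a NEBNext kit, per the labels' protocols; the kit ligates adapters, so a read can cover a whole mature miRNA. The tools were featureCounts, Bowtie2, Trim Galore and CASAVA 1.8.2, on mm10, per the submitters' processing notes; the sources used here do not give their settings. As the unit, the authors deposited raw read counts for 2045 rows of mature miRNAs in 24 libraries. Rows were named by RefSeq position on GRCm38 (1670) or by GENCODE M21 hairpin and arm (375). The copies of a mature accession were summed; whether reads of miR-16-5p that map to both its copies were counted once is not stated.

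edgeR 4.0.16 (R 4.3.3) tested the counts with its quasi-likelihood test in 1 fit of 4 groups, with TMM factors and filterByExpr, which kept 582 miRNAs; Benjamini-Hochberg adjustment ran over all of them, with a threshold of 0.05. The fit was tested on simulated data. CPM are scaled by the TMM factors. Ratios were tested by exact permutation and relations on log2(CPM + 0.5) by permutation (100000 resamples, or exact within the 7 libraries). Alternatives were RLE factors, no filter, rows not summed, DESeq2 1.42.0, only the groups compared, covariates, and leaving out libraries. The floor of 3 reads covers counting error only. Named besides the members were the 3p arms, the miR-322 neighbours and, for each member, the 3 miRNAs most like it. Members and lists were chosen with earlier results of these data known. Python 3.11.15, scipy 1.17.1 and matplotlib 3.10.9 were also used.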

Additional observations from a re-analysis of the deposited data

Results flagged for a closer look

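In 4 of 32 sets of 6 libraries (each member and ratio in each group), the highest library stood apart from the other 5 by more than Dixon's 95% critical value. For normally distributed values chance flags about 1 in 20. The sets share libraries, and those of the members hold CPM without a log scale, so 4 of 32 cannot be set against that rate. miR-15a-5p was at 1309 CPM in kinase dead trained replicate 2, against 171 to 311 CPM in the other 5. In the same library the log2 ratio of miR-15a-5p to miR-15b-5p was 3.79, against -0.67 to 0.62. miR-15b-5p was at 344 CPM in wild type sedentary replicate 1, the library of that group rich in miR-150-5p, against 113 to 199 CPM. The log2 ratio of miR-195a-5p to miR-497a-5p was 1.33 in kinase dead trained replicate 3, also rich in miR-150-5p, against 0.71 to 0.90.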

How the results depend on the processing

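No member was called under any of the 8 alternatives or in any of the 24 fits that left out a library. Of 276 log2 fold changes of members under the 8 alternatives, 21 changed sign; the cause was not tested. With miR-150-5p as a covariate, 6 miRNAs, none of them a member, were called for training averaged over genotypes (smallest adjusted p = 0.0320 by edgeR), against 0 without it, and miR-195a-5p for training in wild type was 0.017. With miR-451a as a covariate, miR-195a-5p was 0.010 for the interaction and -0.042 for genotype in sedentary mice, and miR-497a-5p for genotype in trained mice was 0.075. With no low-count filter, miR-15b-5p for training in kinase dead was -0.017 and miR-497a-5p for genotype in trained mice 0.0031. For genotype in trained mice miR-497a-5p was also 0.0026 with rows not summed, and miR-16-5p and miR-497a-5p were 0.0053 and 0.019 with RLE factors, 0.033 and 0.039 with only the groups compared, and 0.0053 and 0.019 with DESeq2; miR-16-5p was 0.0056 with miR-150-5p as a covariate.

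Without the 7 libraries rich in miR-150-5p, miR-15b-5p was -0.041 for training in kinase dead, -0.049 for genotype in sedentary mice and -0.17 for genotype in trained mice, miR-16-5p was 0.13 for the interaction, and miR-16-5p, miR-195a-5p and miR-497a-5p were 0.17, 0.028 and 0.16 for genotype in trained mice. The log2 ratio of miR-15a-5p to miR-15b-5p for genotype in trained mice was then 0.76, against -0.01 over all libraries.

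Leaving out each library in turn gave the following ranges where a sign changed. For training in wild type they were -0.11 to 0.14 for miR-322-5p and -0.053 to 0.57 for miR-15b-5p; for miR-15b-5p they were -0.36 to 0.36 in kinase dead and -0.059 to 0.28 averaged over genotypes. For the interaction they were -0.25 to 0.034 for miR-16-5p, -0.074 to 0.18 for miR-497a-5p, -0.40 to 0.64 for miR-15a-5p and -0.60 to 0.15 for miR-15b-5p. For genotype in sedentary mice they were -0.0089 to 0.19 for miR-195a-5p and -0.19 to 0.054 for miR-497a-5p. For genotype in trained mice they were -0.11 to 0.14 for miR-16-5p, -0.10 to 0.022 for miR-195a-5p, -0.085 to 0.11 for miR-497a-5p, -0.64 to 0.44 for miR-15a-5p, -0.21 to 0.011 for miR-322-5p and -0.22 to 0.39 for miR-15b-5p. The log2 ratio of miR-195a-5p to miR-497a-5p ranged from -0.0030 to 0.12 for training in kinase dead and from -0.14 to 0.015 for genotype in trained mice, and that of miR-15a-5p to miR-15b-5p from -0.62 to 0.27 for genotype in trained mice. Other ranges reached over 1.5 times above or below the value over all libraries with no change of sign. For training in wild type they were -0.36 to -0.098 for miR-16-5p, -0.17 to -0.0032 for miR-195a-5p and -1.04 to -0.47 for miR-15a-5p. In kinase dead they were -0.45 to -0.19 for miR-16-5p, -0.33 to -0.10 for miR-195a-5p, -0.41 to -0.16 for miR-497a-5p, -1.06 to -0.16 for miR-15a-5p and -0.42 to -0.15 for miR-322-5p. Averaged over genotypes they were -0.36 to -0.21 for miR-16-5p, -0.20 to -0.078 for miR-195a-5p, -0.86 to -0.41 for miR-15a-5p and -0.22 to -0.051 for miR-322-5p. For the interaction they were -0.26 to -0.016 for miR-195a-5p and -0.48 to -0.20 for miR-322-5p. For genotype in sedentary mice they were 0.023 to 0.24 for miR-16-5p, -0.38 to -0.041 for miR-15a-5p, 0.14 to 0.35 for miR-322-5p and 0.033 to 0.70 for miR-15b-5p. The log2 ratio of miR-15a-5p to miR-15b-5p ranged from -1.24 to -0.35 for training in kinase dead and from -0.71 to -0.24 for genotype in sedentary mice. No paired analysis was possible because the replicate numbers only follow the order of the samples.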
